A study of Mus musculus with 4 samples.

Results

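The 35 genes described here encode the machinery that copies DNA and the factors that prepare a cell for it: the MCM helicase and its loaders, the sliding clamp and its loader, polymerases, enzymes that make DNA precursors, and chromatin factors of S phase. They were taken as a list of gene symbols out of 32285 genes in the count tables, and all 35 were detected. Their UMI counts (unique molecular identifiers, 1 per captured RNA molecule) were read in CD8+ PD-1+ CD44+ T cells sorted from tumor-draining lymph nodes (TdLN) of C57BL/6 mice bearing B16F10GP, a melanoma line that expresses a glycoprotein of the virus LCMV. Groups were untreated mice (Control), mice whose tumor was irradiated (RT), mice given an antibody that blocks PD-L1 (αPD-L1) and mice given both (RT + αPD-L1). Treated cells were collected on day 7, and no day was given for Control. The paper also sorted naive CD8+ CD44- CD62L+ cells of untreated mice as a control. Its label names the Control library only as untreated, so whether such cells are in it is not known here. The paper's mice were female. Its irradiation methods describe tumors on both flanks with only the right one irradiated. Some of its experiments used a single tumor, and it does not state which design these mice had. Each treatment was 1 droplet library holding cells of 5 hashtagged mice, so treatment and library cannot be told apart.

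Replication origins are licensed in G1 phase, when Cdc6 and Cdt1 load the ring of Mcm2 to Mcm7 onto DNA. Cdc45 and the GINS proteins then turn that ring into an active helicase, while Pcna, loaded by the Rfc complex, holds the polymerases on the template. Many of these genes are targets of E2F transcription factors and are switched on late in G1 phase, and lymph node T cells that meet antigen divide within days.

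The comparisons used 37716 CD8 T cells, between 8768 and 10568 per treatment, with median depths of 6267 to 6998 UMIs per cell. Mice were unevenly represented, from 135 cells and 1156486 UMIs (RT mouse 4) to 4662 cells and 38026504 UMIs (RT + αPD-L1 mouse 3). Cd3e (1110 CPM, the gene's UMIs per 1000000 UMIs, mean over 20 mice) and Cd8b1 (1260 CPM) marked the cells as CD8 T cells, whereas the B cell gene Cd79a (0.848 CPM) and the natural killer cell gene Ncr1 (0.404 CPM) were close to 0. Summed over whole marker lists in Control mice, 6 B cell genes reached 206 CPM and 8 dendritic cell genes 185 CPM. The 4 natural killer cell genes reached 53.3 CPM and the 7 CD8 T cell genes 5290 CPM. Clusters with markers of dendritic or B cells had been left out beforehand, so these values describe the remaining cells. The gate genes Pdcd1 (26.5 CPM) and Cd44 (63.9 CPM) were present. Pairs of libraries shared 135 to 196 cell barcodes. Each member had between 2370 and 59924 UMIs over all cells, and all 35 passed the filter on low counts in each of the 3 fits used below. A gene's CPM depends on how its RNA is captured, so levels are compared within a gene and not between genes.

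Cells were first divided by their position in the cell cycle with 24 marker genes, none of them a member. Each cell was thinned to 2000 UMIs, and a cell with at least 3 marker UMIs was called cycling. This gave 5639 cycling and 30075 non-cycling cells, and 2002 shallower cells were not scored. The cutoff lies in a continuum, with 3232 cells at 2 marker UMIs and 1149 at 3. Cycling cells were also deeper, with a median of 13404 UMIs against 6398. Thinned to equal depth, a cycling cell held 8.73 ± 0.614 member UMIs per 2000 (mean ± SD of 19 mice) and a non-cycling cell 2.01 ± 0.133 (20 mice). The ranges, 7.88 to 9.78 and 1.79 to 2.24, did not overlap in any mouse. How far free RNA adds to the level in non-cycling cells was not tested.

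All 35 members were higher in cycling than in non-cycling cells, but by very different amounts. The log2 ratio (1 CPM added, mean of 19 mice) had a median of 2.04 over the members, and 33 of them exceeded 1. Over all 11980 genes the median was -0.08, and 5.09% exceeded 1. Markers and members are both cell cycle genes, so these values are a description with no test.

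The steepest ratios belonged to Rrm2, Tk1 and Tyms, enzymes that supply deoxynucleotides. Rrm2, the regulated subunit of ribonucleotide reductase, stood at 373 ± 46.5 CPM in cycling and 12.2 ± 2.65 CPM in non-cycling cells, a 27.9-fold ratio. Tk1, the thymidine salvage kinase, was at 176 ± 11.4 and 13.0 ± 2.83 CPM, a 12.9-fold ratio. Tyms, which makes thymidylate, followed at 219 ± 14.4 and 21.1 ± 2.82 CPM, or 9.92-fold. Next came the helicase activator Cdc45 (52.4 ± 5.43 and 5.99 ± 1.80 CPM, 8.07-fold) and Uhrf1, which carries DNA methylation through replication (165 ± 12.9 and 20.4 ± 2.98 CPM, 7.70-fold). Rrm1, the other reductase subunit, differed only 6.71-fold, so the subunits of 1 enzyme were not equally tied to the class. Dut, also an enzyme of deoxynucleotide supply, differed 4.03-fold.

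At the other end, Ung, the uracil-DNA glycosylase, had the smallest ratio, with 42 ± 8.28 CPM in cycling and 24 ± 3.53 CPM in non-cycling cells (1.68-fold). Rfc1, the large subunit of the clamp loader, was at 98.9 ± 9.55 and 55.9 ± 4.83 CPM (1.77-fold). Rfc2 (2.52-fold), Mcm6 (2.56-fold) and Mcm2 (2.59-fold) came next. Within the MCM ring the ratio ran from 2.56-fold for Mcm6 to 4.11-fold for Mcm5, and Mcm10, a helicase cofactor outside the ring, reached 7.68-fold.

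Cycling cells were divided further by whether they held more UMIs of replication-dependent histone genes (1674 histone-high cells) or of G2/M genes (3824 mitotic-high cells). All 35 members had a higher mean in histone-high cells, with a median log2 ratio of 0.55 against -0.05 for all genes. The largest was Cdc6, the licensing factor, at 68.9 ± 17.8 CPM in histone-high and 34.0 ± 5.61 CPM in mitotic-high cells (1.91-fold, higher in 17 of 18 mice). E2f1, the transcription factor, was 1.76-fold higher and Uhrf1 1.72-fold, each in 18 of 18 mice. Rfc5, a small subunit of the clamp loader, differed least (1.24-fold, 17 of 18 mice). Sums over all members were 11.1 ± 1.48 and 7.85 ± 0.571 UMIs per 2000.

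The start regions of the members' genes are described next. RefSeq promoter windows (250 bases before to 50 after the start, GRCm38.p6) were matched for 29 members; Rfc2, Pole, Gmnn, Mcm4, Gins2 and Gins1 had no entry. The E2F letters searched were TTTCGCGC, TTTGGCGC, TTTCCCGC and TTTGCCGC on both strands, and overlapping matches were counted. At least 1 was held by 10 of the 29 members (34.5%) and by 2.6% of 27025 genes with windows. They were Mcm3, Mcm5, Mcm6, Mcm7, Cdt1, Cdc6, Rfc3, Pola1, Lig1 and Uhrf1. Rrm2, Tk1, Tyms and Cdc45, with the steepest cycling over non-cycling ratios, had windows but held no match. Uhrf1, next in that order, held a match. CCAAT was held by 17 members (58.6%) and by 41.1% of all genes.

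The 200 bases before the start are printed 5′ to 3′ for Mcm5 and Mcm6, which hold several matches there, and for Rfc4, whose window holds none although its cycling over non-cycling ratio equals that of Mcm5 (4.11-fold each). Capitals mark the E2F letters. The stretches are chr8:75109309-75109508 (plus strand), chr1:128359706-128359905 (minus) and chr16:23127731-23127930 (minus).
Mcm5: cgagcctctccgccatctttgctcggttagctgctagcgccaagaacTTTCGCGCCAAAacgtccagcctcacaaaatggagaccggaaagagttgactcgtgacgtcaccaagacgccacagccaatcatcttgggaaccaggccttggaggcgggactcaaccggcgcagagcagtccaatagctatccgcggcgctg
Mcm6: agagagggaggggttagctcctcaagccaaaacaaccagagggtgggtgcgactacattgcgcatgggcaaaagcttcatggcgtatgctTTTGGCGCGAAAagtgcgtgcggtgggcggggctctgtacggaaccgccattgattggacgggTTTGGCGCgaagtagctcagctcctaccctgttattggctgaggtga
Rfc4: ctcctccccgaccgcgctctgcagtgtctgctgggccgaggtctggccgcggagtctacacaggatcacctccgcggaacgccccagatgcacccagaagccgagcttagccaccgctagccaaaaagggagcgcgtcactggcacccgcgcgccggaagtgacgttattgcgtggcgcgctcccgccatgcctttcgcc
In Mcm5 and Mcm6 matches on opposite strands overlap and form 1 run of capitals, and Mcm6 has a further match nearer the start. A match of letters is not a measured binding site.

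Members also differed between cell states, which came from a clustering that left out all members and the other cell cycle lists. Names ending in "like" rest on marker genes, and other clusters are called by their leading genes. The G2/M-like state is not confined to G2/M by its markers. Its leading genes held 5 markers of S phase beside 8 of G2/M, and Hist1h2ae, Hist1h2ap and Pclaf were among them. The summed level of the 35 members was 5738 ± 290 CPM in the G2/M-like state (3407 cells, 93.3% of scored cells cycling) and 3403 ± 333 CPM in a state led by Srm, Shmt1 and Xcl1 (4030 cells), although only 19.1% of its scored cells were cycling. Non-cycling cells of the Srm-led state held 4.42 member UMIs per 2000, and the 227 such cells of the G2/M-like state held 6.56. The value was 2.04 in the chronically stimulated-like, 1.63 in the naive-like and 1.68 in the effector-like state. Sums in the naive-like (874 ± 87.7 CPM), effector-like (963 ± 206 CPM) and interferon-high-like (788 ± 138 CPM) states were all far lower and overlapped. A state led by Gm26917 was at 1929 ± 294 CPM. Of its scored cells 44.3% were cycling, and its non-cycling cells held 2.64 member UMIs per 2000. Its median depth was 1704 UMIs, however, and only 862 of its 2477 cells were deep enough to be scored. The ratio of the highest to the lowest sum was 7.28.

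The Srm-led state did not simply hold a weaker copy of the G2/M-like pattern. Ung was at 85.8 ± 10.0 CPM there and at 31.5 ± 7.12 CPM in the G2/M-like state (19 mice each). Mcm2 (127 ± 14.3 and 113 ± 13.5 CPM) and Mcm6 (303 ± 31.1 and 315 ± 26.6 CPM) differed by no more than about the SD of the mice. Rrm2, in contrast, was at 79 ± 15 CPM in the Srm-led and 458 ± 51.9 CPM in the G2/M-like state, and Tk1 at 65.4 ± 9.35 and 203 ± 16.1 CPM. Ung and these MCM genes therefore made up a larger part of the summed level in the Srm-led state, and Rrm2 and Tk1 a larger part in the G2/M-like state. Because the G2/M-like state held markers of both S phase and G2/M, this contrast does not compare phases of the cell cycle.

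**Figure D1:**
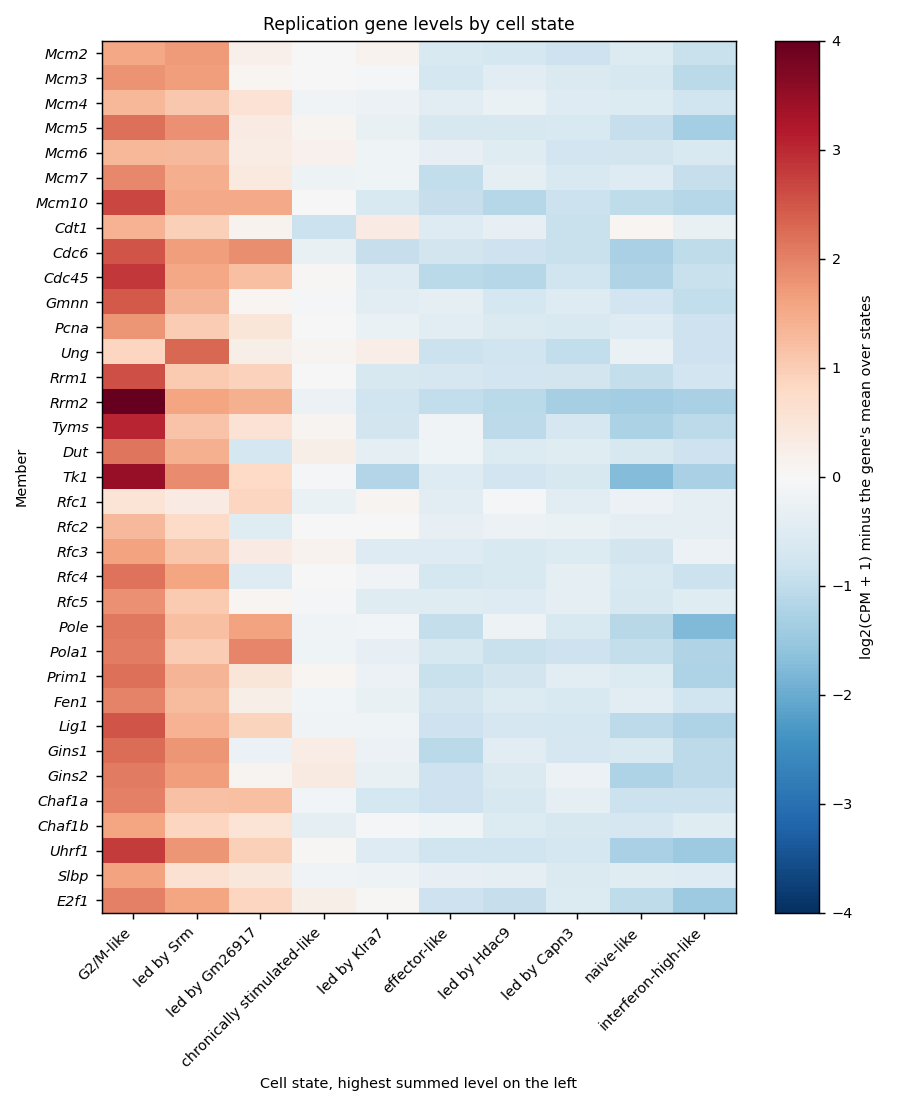
Level of each member (rows) in each cell state (columns), as log2(CPM + 1) minus the gene's mean over states. The 2 leftmost columns, G2/M-like and Srm-led, are high for nearly all members, and Ung is clearly stronger in the Srm-led (85.8 CPM) than in the G2/M-like state (31.5 CPM).

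The share of cycling cells was lower in irradiated mice than in Control. It was 16.3%, 18.4%, 19.1%, 16.5% and 16.2% in the 5 Control mice and 13.5%, 13.8%, 12.6%, 13.0% and 14.4% in the 5 RT mice, without overlap. The difference was -3.84 percentage points (exact permutation test, two-sided, p = 0.0079, the smallest that 5 against 5 mice can give, adjusted p = 0.0397 over 5 comparisons). RT + αPD-L1 mice had 15%, 11.2%, 16.5%, 13.1% and 14.6%, and all but mouse 3 lay below every Control mouse. The difference of -3.21 points missed the threshold (exact permutation test, adjusted p = 0.0794). Omission of single mice gave -3.82 to -2.5 points, with -3.82 points when mouse 3, the only one that reached the Control range, was left out. αPD-L1 mice spread widely, from 11.7% to 22.1%, and differed from Control by -1.60 points (exact permutation test, adjusted p = 0.54). The RT difference depended on the cutoff: it was -1.17 points (exact permutation test, adjusted p = 0.198) with 5 marker UMIs required. Without thinning, the mean share was 45.3% for Control, 35% for RT, 43.1% for αPD-L1 and 34.5% for RT + αPD-L1, with SDs of 2.98 to 3.6 points. In bulk sums over a mouse, fewer cycling cells and less RNA per cell cannot be told apart. Each comparison below is therefore given over all cells and within each class. The split separates them only in part, because cells with 2 marker UMIs count as non-cycling. Requiring 2 rather than 3 marker UMIs raised the mean share from 17.3% to 27.9% in Control and from 13.5% to 20.7% in RT. With RT + αPD-L1 it went from 14.1% to 22.0%, and with αPD-L1 alone from 15.7% to 26.0%. How far such cells add to differences outside the cycling class was not tested.

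The summed member level of all cells differed less. The mean was 2304 ± 81.2 CPM for Control, 2230.0 ± 113 CPM for RT, 2277 ± 376 CPM for αPD-L1 and 2124 ± 116 CPM for RT + αPD-L1, and the ranges of all 4 treatments overlapped. αPD-L1 mouse 2, which had the highest share of cycling cells (22.1%), also had the highest sum (2833 CPM).

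**Figure D2:**
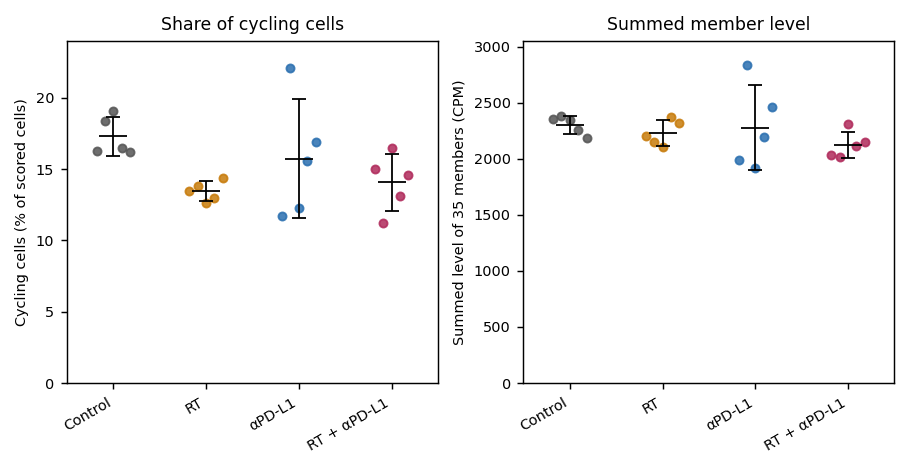
Share of cycling cells (left, % of scored cells) and summed level of the 35 members in all cells (right, CPM) for each mouse, with mean and SD as line and bar. The 5 RT mice lie at or below 14.4% and the 5 Control mice at or above 16.2%, whereas the sums overlap in every pair of treatments.

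Over all CD8 T cells, 2 of the 35 members, Ung and Mcm7, fell after RT + αPD-L1 relative to Control, and none rose. That is 5.71% of the members, while 9.18% of the 11980 genes tested were called in this comparison, so the count lies below the background. Small shifts ran mostly downward: 31 of 35 fold changes were below 0, against 52.1% of all genes, and the median was -0.11 against -0.01.

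Ung was at 34.5, 32.9, 36.9, 27.1 and 29.9 CPM in the 5 Control mice and at 27.0, 21.9, 22.1, 27.2 and 29.9 CPM in the 5 RT + αPD-L1 mice. The ranges overlapped, since the lower Control mice reached the level of the higher treated ones. The log2 fold change was -0.37 ± 0.09 (SE, adjusted p = 0.0153). Mcm7 was at 102, 101, 101, 98.7 and 93.9 CPM in Control and at 86.3, 77.4, 86.3, 83.5 and 83.0 CPM after RT + αPD-L1. Here every treated mouse lay below every Control mouse, and the log2 fold change was -0.25 ± 0.07 (adjusted p = 0.022). Both calls are lost with sums thinned to the smallest mouse and with another assignment of cells to mice (HTODemux, adjusted p = 0.076 for Ung and 0.0984 for Mcm7). Omission of single mice removed the call of Ung in 2 of 20 cases (adjusted p up to 0.0698, without RT + αPD-L1 mouse 3) and that of Mcm7 in 3 (up to 0.0602, without Control mouse 1).

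Among the licensing genes the log2 fold change in this comparison was -0.04 for Mcm2 (59.0 CPM, mean of all 20 mice), -0.21 for Mcm3 (126 CPM), -0.11 for Mcm4 (114 CPM), -0.20 for Mcm5 (97.2 CPM) and -0.12 for Mcm6 (167 CPM). Mcm3 stood at 142, 137, 140.0, 131 and 131 CPM in Control and at 97.5, 114, 125, 126 and 116 CPM after RT + αPD-L1, without overlap, but missed the threshold (SE 0.07, adjusted p = 0.0817). The loaders Cdt1 (0.06, 42.3 CPM) and Cdc6 (-0.01, 15.2 CPM), and Gmnn (-0.03, 60.2 CPM), which blocks Cdt1 once S phase has begun, had log2 fold changes near 0. So did Cdc45 (0.04, 17.2 CPM), Mcm10 (-0.01, 7.87 CPM) and Gins1 (-0.05, 7.73 CPM). Gins2, a partner of Gins1 in the GINS complex, was at 30.3, 31.9, 27.6, 28.1 and 25.0 CPM in Control and at 21.8, 23.7, 24.8, 25.4 and 22.3 CPM after the combination (log2 fold change -0.25 ± 0.10, adjusted p = 0.134).

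At the fork, the log2 fold change was -0.09 for the clamp Pcna (120.0 CPM) and -0.09, -0.17, -0.01, -0.20 and -0.06 for the loader genes Rfc1 (67.1 CPM), Rfc2 (83.1 CPM), Rfc3 (25.6 CPM), Rfc4 (48.9 CPM) and Rfc5 (44.0 CPM). It was -0.18 for Pola1 (30.3 CPM), the polymerase that starts new strands, and -0.15 for its primase partner Prim1 (37.2 CPM). Pole, the catalytic subunit of the leading-strand polymerase, was at 24.1, 21.5, 20.8, 24.8 and 20.9 CPM in Control and 15.8, 19, 18.8, 20.7 and 19.6 CPM after RT + αPD-L1 (-0.21 ± 0.11, adjusted p = 0.247). Its treated mice were all below the Control mice, though only just. For Fen1 (57.0 CPM) and Lig1 (62.1 CPM), which trim and seal lagging-strand fragments, the values were -0.08 and -0.16. None of these genes passed the test.

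The precursor enzymes had log2 fold changes of -0.03 for Rrm1 (99.2 CPM), 0.12 for Rrm2 (99.1 CPM), -0.05 for Tyms (70.2 CPM), -0.12 for Dut (195 CPM), which removes dUTP, and -0.20 for Tk1 (52.6 CPM). The chromatin factors were at -0.16 for Chaf1a (21.9 CPM) and -0.11 for Chaf1b (29.6 CPM), subunits of the histone chaperone CAF-1, and -0.21 for Uhrf1 (55.2 CPM). Slbp, which binds the stem-loop of histone mRNAs, had the highest value of all members (0.13, 137 CPM), and E2f1 (18.2 CPM) was at -0.03. None passed the test either.

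**Figure D3:**
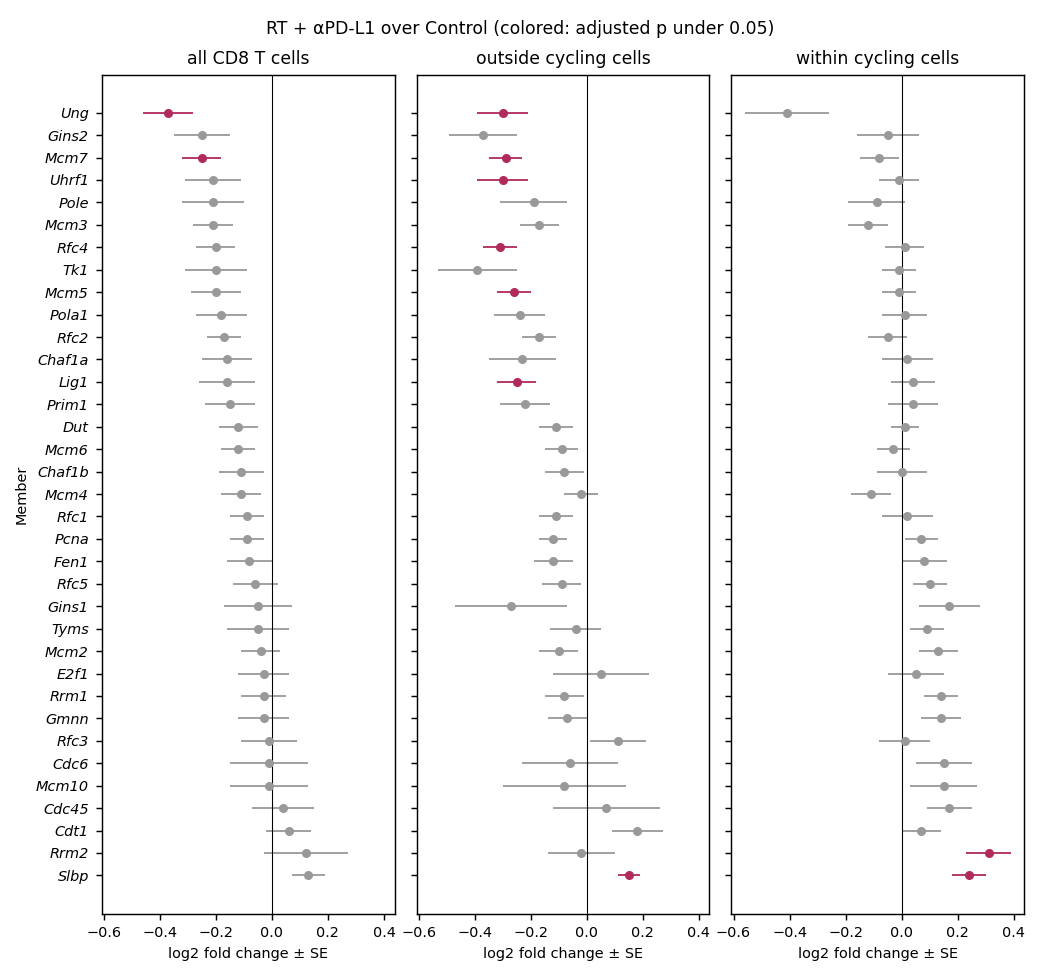
Log2 fold change of every member in RT + αPD-L1 over Control with its standard error, over all CD8 T cells (left), outside cycling cells (middle) and within cycling cells (right), colored where the adjusted p was under 0.05. The colored points lie to the left of 0 for all cells (Ung, Mcm7), mostly to the left outside cycling cells, and to the right within cycling cells (Rrm2, Slbp).

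Outside cycling cells, 6 members fell after RT + αPD-L1 and 1, Slbp, rose, where 10.4% of 11576 genes were called. Those that fell were Rfc4, Ung, Uhrf1, Mcm7, Mcm5 and Lig1, which act in clamp loading, uracil removal, methylation maintenance, the helicase ring and ligation. Cells with 2 marker UMIs remain in this class, and their part in these changes was not tested.

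Rfc4 was at 31.9, 31.0, 30.5, 30.9 and 29.6 CPM in Control and at 26.6, 22.6, 21.7, 27.9 and 25.9 CPM after RT + αPD-L1, without overlap (log2 fold change -0.31 ± 0.06, adjusted p = 0.0031). Mcm7 was at 63.1, 62.3, 61.2, 57.7 and 60.2 CPM and at 50.5, 47.9, 47.2, 47.7 and 54.8 CPM, again without overlap (-0.29 ± 0.06, adjusted p = 0.00415). These were the only members still called here under HTODemux.

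Uhrf1 was at 23.0, 24, 25.2, 21.7 and 22.1 CPM in Control and 15.3, 18.2, 17.9, 20.2 and 19.9 CPM after the combination (-0.30 ± 0.09, adjusted p = 0.027). Its groups did not overlap. For Mcm5 the values were 66.4, 63.2, 65.1, 57.2 and 60.7 CPM in Control and 43.8, 46.2, 54.4, 52.9 and 57.7 CPM after the combination (-0.26 ± 0.06, adjusted p = 0.011), and the highest treated mouse passed the lowest Control mouse. Lig1 (27.1, 28.8, 26.6, 29.0 and 28.9 CPM against 27.4, 19.2, 23.3, 23.1 and 25.7 CPM; -0.25 ± 0.07, adjusted p = 0.027) and Ung (29.2, 28.2, 31.1, 23.9 and 24.5 CPM against 26.6, 19.9, 19.7, 21.6 and 26.3 CPM; -0.30 ± 0.09, adjusted p = 0.0394) overlapped as well. Slbp went the other way, from 82.5, 82.7, 84.7, 80.0 and 83.3 CPM in Control to 90.0, 91.3, 91.2, 86.9 and 90.4 CPM, with every treated mouse above every Control mouse (0.15 ± 0.04, adjusted p = 0.0359).

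The calls of Rfc4, Mcm7 and Mcm5 outside cycling cells were made in all 20 omissions of a mouse, and the others were not. Lig1 was lost in 3 omissions (adjusted p up to 0.0942, without RT + αPD-L1 mouse 2), Uhrf1 in 4 (up to 0.0726, without RT + αPD-L1 mouse 3), Ung in 6 (up to 0.129, without the same mouse) and Slbp in 7 (up to 0.123, without RT + αPD-L1 mouse 2). DESeq2 did not call Ung here (adjusted p = 0.055). Slbp was also not called without a filter on low counts or with every assigned cell kept, and none of the 7 was called with thinned sums.

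Within cycling cells 2 members, Slbp and Rrm2, rose in the same comparison and none fell (5.71% of the members, 2.51% of 10133 genes). Slbp was at 261, 243, 259, 270.0 and 245 CPM in Control and 324, 316, 292, 296 and 292 CPM after RT + αPD-L1, without overlap (0.24 ± 0.06, adjusted p = 0.0158). Rrm2 was at 356, 330.0, 326, 306 and 290.0 CPM and at 414, 439, 432, 348 and 358 CPM, with mouse 4 of the treated group below the highest Control mouse (0.31 ± 0.08, adjusted p = 0.0422). Neither call holds under HTODemux (adjusted p = 0.0787 for Slbp and 0.605 for Rrm2), that of Slbp is lost with thinned sums and that of Rrm2 with every assigned cell kept. Rrm2 is lost in 11 of 19 omissions of a mouse (adjusted p up to 0.184, without RT + αPD-L1 mouse 3) and Slbp in 3 (up to 0.06, without Control mouse 2). Ung was at 46.3 ± 6.48 CPM in Control and 36.1 ± 9.07 CPM after the combination, a log2 fold change of -0.41 ± 0.15 that missed the threshold (adjusted p = 0.176). RT mouse 4, with fewer than 20 cycling cells, is absent from this fit. Whether a member's change differs between the classes was not tested.

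**Figure D4:**
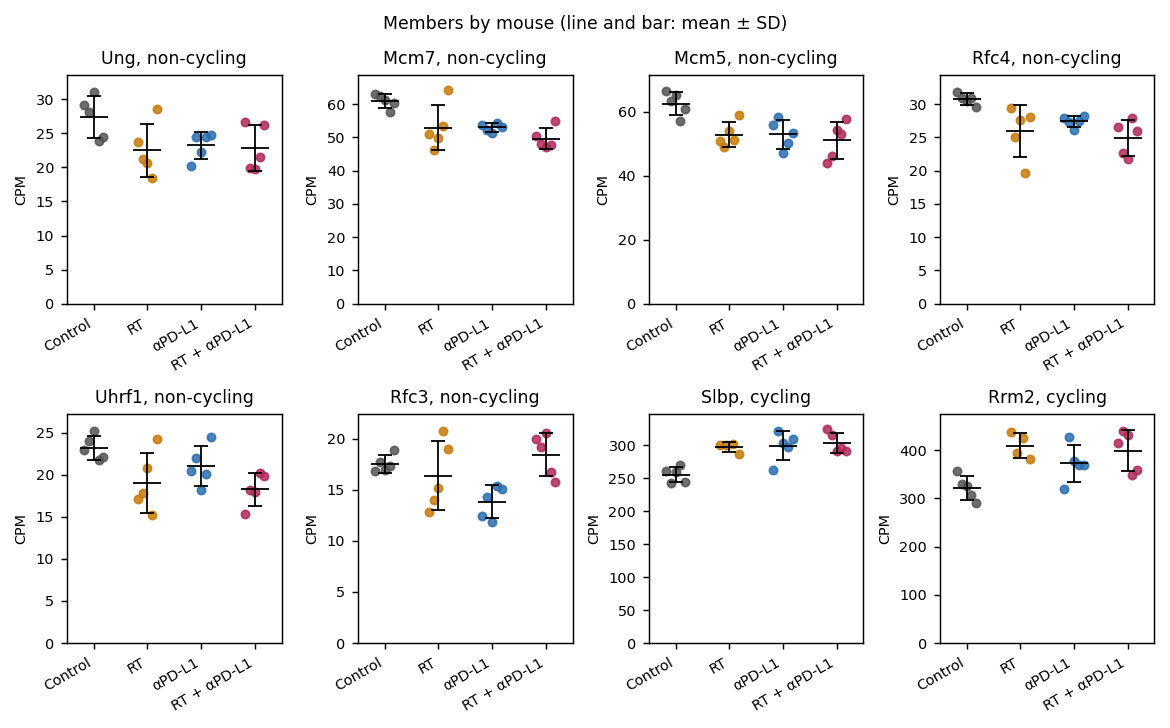
Level (CPM) of Ung, Mcm7, Mcm5, Rfc4, Uhrf1 and Rfc3 in non-cycling cells and of Slbp and Rrm2 in cycling cells, 1 point per mouse, with mean and SD as line and bar. Control mice lie above all RT + αPD-L1 mice for Mcm7, Rfc4 and Uhrf1 and below them for cycling-cell Slbp, and for Rfc3 the αPD-L1 mice lie below all RT + αPD-L1 mice.

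The mix of cell states also differed between Control and RT + αPD-L1 mice. Interferon-high-like cells made up 2.41%, 1.53%, 1.96%, 0.639% and 7.19% of the cells of the Control mice and 1.09%, 36.2%, 46.3%, 11.2% and 12.4% of those of the RT + αPD-L1 mice. Their summed member level was among the lowest over all treatments together. In RT + αPD-L1 mice alone it was 917 ± 143 CPM (4 mice), near the naive-like (872 ± 95.5 CPM) and effector-like states (909 ± 117 CPM). The Srm-led state, where most members were high, went from 12.9% ± 1.60 to 8.96% ± 2.12 of cells. When the interferon-high-like cluster was left out, a setting chosen after the data were seen, no member was called over all cells (4 at an unadjusted p under 0.05, while 4.77% of all genes were called), and 9 rather than 31 of 35 fold changes were below 0. Mcm7 was then at -0.07 (adjusted p = 0.701) and Ung at -0.20 (adjusted p = 0.18). Outside cycling cells only Slbp stayed called (0.18, adjusted p = 0.0283), and Rfc4 was at -0.14 (adjusted p = 0.224). Within cycling cells Slbp (0.25, adjusted p = 0.0158) and Rrm2 (0.34, adjusted p = 0.0312) were both called. Single mice did not follow the mix evenly. Outside cycling cells, RT + αPD-L1 mouse 1, with 1.09% interferon-high-like cells, had the lowest treated Mcm5 (43.8 CPM) and Uhrf1 (15.3 CPM). It also had the highest treated Lig1 (27.4 CPM) and Ung (26.6 CPM), and its Mcm7 and Rfc4 lay within the range of the other treated mice. The part of the changed mix of states in the member calls was not tested beyond these values.

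RT alone and αPD-L1 alone were compared with the same Control mice as the combination, so the 3 comparisons are not independent. Over all cells neither called a member (RT, 0.1% of genes called; αPD-L1, 0.518%), with 2 members at an unadjusted p under 0.05 in each and none called by DESeq2. Ung was at -0.25 ± 0.09 in RT (adjusted p = 0.335) and -0.20 ± 0.09 in αPD-L1 (adjusted p = 0.295). Outside cycling cells no member was called in RT (0.311% of genes) or αPD-L1 (0.821% of genes), though 33 and 31 of 35 fold changes were below 0, against 51.1% and 51.5% of all genes. The medians were -0.16 and -0.12, with 13 and 12 members at an unadjusted p under 0.05. All members are higher in cycling cells, so their directions are not independent of each other. DESeq2 called none in RT and 1 in αPD-L1, Mcm5 (adjusted p = 0.0491). In those cells the mean of Mcm7 was 60.9 ± 2.1 CPM for Control, 52.9 ± 6.78 CPM for RT, 53 ± 1.22 CPM for αPD-L1 and 49.6 ± 3.17 CPM for RT + αPD-L1. All αPD-L1 mice (51.3 to 54.4 CPM) lay below Control, whereas RT mouse 5 (64.1 CPM) lay above it.

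Within cycling cells the fold changes in RT leaned upward, with 32 of 35 above 0 and a median of 0.09, while 51.1% of all genes lay below 0. No member was called (0.0% of genes called, 8 members at an unadjusted p under 0.05, none by DESeq2). Rrm2 was at 0.34 ± 0.08 (adjusted p = 0.371) and Slbp at 0.22 ± 0.06 (adjusted p = 0.399). In αPD-L1 Slbp was at 0.22 ± 0.06 (adjusted p = 0.223) and no member was called (0.0888% of genes, 5 members at an unadjusted p under 0.05), while DESeq2 called Slbp (adjusted p = 0.0111). The mean of Slbp in cycling cells was 256 ± 11.3 CPM for Control, 298 ± 6.91 CPM for RT (4 mice), 299 ± 22 CPM for αPD-L1 and 304 ± 15.2 CPM for RT + αPD-L1.

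Adding αPD-L1 to RT called no member over all cells (3.11% of genes, 0 members at an unadjusted p under 0.05), outside cycling cells (3.97% of genes, 4 members) or within them (1.12% of genes, 3 members), and DESeq2 called none. Adding RT to αPD-L1 called none over all cells (2.49% of genes, 3 members at an unadjusted p under 0.05) or within cycling cells (1.52% of genes, 1 member), again with none by DESeq2. Outside cycling cells 1 member rose, Rfc3, a small subunit of the clamp loader (2.86% of the members, 2.81% of genes). Rfc3 was at 12.4, 14.3, 11.8, 15.4 and 15.1 CPM in the αPD-L1 mice and at 20, 19.2, 20.5, 16.7 and 15.7 CPM in the RT + αPD-L1 mice, without overlap (0.45 ± 0.10, adjusted p = 0.0161). Control was at 17.5 ± 0.864 CPM and RT at 16.3 ± 3.37 CPM, so the mean of αPD-L1 was the lowest of the 4. The adjusted p was 0.13 without RT + αPD-L1 mouse 3, 0.0669 under HTODemux and 0.189 without the interferon-high-like cluster, and the call is also lost with thinned sums.

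The interaction asks whether the combination differs from the sum of both single treatments on the log2 scale. It called no member over all cells (0.935% of genes, 1 member at an unadjusted p under 0.05) or within cycling cells (0.434% of genes, 6 members), and DESeq2 called none. Outside cycling cells it called Rfc3 (0.60 ± 0.15, adjusted p = 0.0459, 1.14% of genes), a call that 15 of 20 omissions of a mouse removed, with adjusted p up to 0.115. It is lost as well under HTODemux (adjusted p = 0.268), without the interferon-high-like cluster (adjusted p = 0.108), with every assigned cell kept and with thinned sums.

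Other genes of the pathway were taken as lists, whose counts stand against 9.18% of all genes called over all cells, 10.4% outside cycling cells and 2.51% within them in RT + αPD-L1 against Control. Of 42 other replication fork genes, 2 fell over all cells in RT + αPD-L1 against Control, Dscc1 (-0.33 ± 0.10, adjusted p = 0.0436), of an alternative clamp loader, and Tipin (-0.20 ± 0.06, adjusted p = 0.0432), of the fork protection complex, and none rose, a share below that of all genes. Outside cycling cells Tipin and its partner Timeless (-0.31 ± 0.09, adjusted p = 0.0358) fell, and within cycling cells none of the 42 passed (4 at an unadjusted p under 0.05). Of 14 chromatin replication genes none passed in any class (2, 4 and 1 at an unadjusted p under 0.05 over all, non-cycling and cycling cells).

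Among 19 nucleotide supply genes, 3 fell over all cells and 1 rose (9.18% of all genes were called). Samhd1, a dNTP hydrolase that is also induced by interferon, rose from 212 to 378 CPM (log2 fold change 0.87 ± 0.18, adjusted p = 0.00425), and it rose within cycling cells too (0.83 ± 0.17, adjusted p = 0.00853). The genes that fell were Shmt1 (-0.39 ± 0.09, adjusted p = 0.0133), of one-carbon metabolism, Impdh2 (-0.21 ± 0.04, adjusted p = 0.00509), of guanine nucleotide synthesis, and Nme1 (-0.14 ± 0.04, adjusted p = 0.0449). Samhd1, which removes dNTPs, and these metabolic enzymes changed in opposite directions.

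Of 27 tested G1/S control genes, 3 rose and 1 fell over all cells (9.18% of all genes were called). The D cyclins Ccnd3 (160.0 to 205 CPM, 0.37 ± 0.06, adjusted p = 0.000973) and Ccnd2 (0.25 ± 0.07, adjusted p = 0.0307) rose, while their kinase partner Cdk4 fell (-0.19 ± 0.05, adjusted p = 0.0239). Cdkn1a, a cell cycle inhibitor, also rose but from very few UMIs (1.02 to 2.12 CPM, 1.5 ± 0.43, adjusted p = 0.0306). Among 18 base excision and mismatch repair genes, set against the same share, Msh3 rose (0.25 ± 0.08, adjusted p = 0.0492) and Ogg1 (-0.28 ± 0.08, adjusted p = 0.0278) and Parp1 (-0.20 ± 0.04, adjusted p = 0.00846) fell.

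Of 35 histone genes tested over all cells, 10 fell in RT + αPD-L1 against Control (9.18% of all genes called), 3 in RT (0.1%) and 4 in αPD-L1 (0.518%), and none rose. The mean of Hist1h4d was 88.5 CPM for Control, 63.2 CPM for RT and 65.4 CPM for RT + αPD-L1 (log2 fold change -0.46 ± 0.07 in RT, adjusted p = 0.00211). Outside cycling cells 19 of 33 fell after the combination (10.4% of all genes called), 13 after RT (0.311%) and 3 after αPD-L1 (0.821%). Within cycling cells none was called after the combination (3 at an unadjusted p under 0.05) or RT (1). In αPD-L1 2 of 35 fell there (12 at an unadjusted p under 0.05, 0.0888% of all genes called). Against αPD-L1, 2 rose after the combination (1.52% of all genes called). Of 33 G2/M genes, 1 fell over all cells (Smc4, -0.14 ± 0.04, adjusted p = 0.0479) and 5 outside cycling cells after the combination, with Mki67 at -0.33 ± 0.09 (adjusted p = 0.0241). In RT 2 fell outside cycling cells, Mki67 (-0.58 ± 0.10, adjusted p = 0.0031) and Top2a (-0.38 ± 0.07, adjusted p = 0.0081). Some of these histone and G2/M genes, Mki67 among them, define the cycling class, so their values outside it depend on the cutoff. Histone genes are near-identical copies whose reads can be split between them, and most of their mRNA lacks a poly(A) tail, so single histone genes are uncertain.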

How the data were processed

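For every barcode the deposited tables hold counts of UMIs, per gene and per hashtag, as integers that the authors obtained with Cell Ranger against an mm10 reference (version 6.1.2 in the file headers, another in the methods). Kept barcodes had 500 to 5000 genes, no more than 40000 UMIs and less than 10% of UMIs from mitochondrial genes (43971 of 47820). A single hashtag placed 39192 of them in a mouse, and barcodes with several (7.47% to 8.85% of a library) were dropped as doublets. Another 1476 cells in clusters with markers of gamma-delta T cells, dendritic cells or B cells were left out. Clusters came from scanpy 1.11.5 and Leiden at resolution 0.6, and took a name when 3 of its markers were among the 50 leading genes and 1 among the first 10.

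Counts were summed per mouse and tested with edgeR 4.0.16 (TMM, filterByExpr, two-sided quasi-likelihood F test, Benjamini-Hochberg adjustment over all genes tested, called under 0.05). A mouse needed 20 cells of a class. Mice of a library share its preparation, so p-values measure the spread between mice within libraries. The code was tested on simulated data. Shares of cycling cells were compared by an exact permutation test. Alternatives were DESeq2 1.42.0, other scaling and filters, HTODemux (Seurat 5.3.0, quantile 0.99), thinned sums and omission of each mouse. Members, lists and tests were chosen with earlier results of these data known. Values are given in every mouse for members called in any comparison or among the 5 that changed most under the combination, and from other lists at most 4 called genes per comparison are named.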

Additional observations from a re-analysis of the deposited data

Results flagged for a closer look

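Of 56 groups of 5 mice examined (the share of cycling cells, the summed member level and 12 members), 1 held a mouse far from the others by Dixon's test, and chance alone flags about 1 in 20. Rrm2 over all cells was at 78.7 CPM in RT mouse 4 and between 99.9 and 102 CPM in the other RT mice. That mouse had the fewest cells, 135. The part of its small cell number in this value was not tested.

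For Rfc3 outside cycling cells, the effect of RT differed with and without αPD-L1 (interaction 0.60 ± 0.15 on the log2 scale, edgeR quasi-likelihood test, adjusted p = 0.0459). The call is lost in 15 of 20 omissions of a mouse and in 5 of 10 other settings, among them HTODemux (adjusted p = 0.268) and omission of the interferon-high-like cluster (adjusted p = 0.108). The mean was 17.5 CPM for Control, 16.3 CPM for RT, 13.8 CPM for αPD-L1 and 18.4 CPM for RT + αPD-L1.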

How the results depend on the processing

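In RT + αPD-L1 against Control, the number of members called over all, non-cycling and cycling cells was 2, 7 and 2. HTODemux gave 0, 2 and 0, sums thinned to the smallest mouse 0, 0 and 1, and omission of the interferon-high-like cluster (added after the data were seen) 0, 1 and 2. Keeping every assigned cell gave 1 within cycling cells. Thinning discards most UMIs of the deeper mice. Omitting each mouse in turn gave 0 to 4, 3 to 9 and 0 to 3. Rfc3 outside cycling cells against αPD-L1 was lost (0 called) under HTODemux, thinned sums and without the interferon-high-like cluster, and in the interaction also with every assigned cell. Thinned sums called 1 member over all cells against αPD-L1. DESeq2 called 1 in αPD-L1 against Control outside and 1 within cycling cells, and omission of the interferon-high-like cluster called 1, Tyms, outside cycling cells against RT. Omitting a mouse called 0 to 3 outside cycling cells in RT, 0 to 1 in αPD-L1, 0 to 1 against RT, 0 to 1 against αPD-L1 and 0 to 1 in the interaction. The replicate block by hashtag number, which does not pair the mice (mean correlation of same-numbered mice 0.03), gave 2, 6 and 2 in RT + αPD-L1 against Control and 0 for the Rfc3 interaction.

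The share of cycling cells in RT against Control was no longer past the threshold with 5 marker UMIs (-1.17 points, adjusted p = 0.198) or thinning to 1000 UMIs (-0.936 points, adjusted p = 0.417). Omitting a mouse gave -4.11 to -3.39 points, but 4 against 5 mice cannot pass the correction unless other comparisons do too. In RT + αPD-L1 against Control it passed with 2 marker UMIs (-5.94 points, adjusted p = 0.0198), thinning to 4000 UMIs (-5.41 points, adjusted p = 0.0198) and HTODemux (-3.83 points, adjusted p = 0.0397), and ranged from -3.82 to -2.5 points when a mouse was omitted. The causes were not tested. Depth limits members such as Gins1 (2370 UMIs) and every value of RT mouse 4.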
